A study of Simmondsia chinensis with 44 samples.

Results

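The cotyledons and the embryonic axis of mid-stage jojoba seeds were compared by RNA sequencing, over 10 libraries of the 44 in the series. The members were all libraries labelled mid-stage cotyledons (5 libraries) and all labelled mid-stage embryonic axis (5 libraries), with every gene of the count table. Jojoba (Simmondsia chinensis) is a desert shrub, and all seeds came from the germplasm line PARL# 940. The labels name no treatment and no genetic change for any group. Cotyledon and axis libraries are told apart in them by dissected part, and the time-course libraries by stage. Seed coat and whole seed of the same mid stage, with 5 libraries each, were used for reference, and so was a separate time course with 6 libraries from each of early, mid, late and dry seed. Nothing in the labels tells whether replicate libraries were made from separate plants or seeds. A p-value here sets a difference against the spread of replicate libraries, which may be technical.

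The embryo of a seed consists of cotyledons and axis. The cotyledons are the seed leaves, which in jojoba fill most of the seed and store liquid wax esters and protein for the seedling. The axis holds the root and shoot poles from which the seedling grows. The seed coat is maternal tissue that encloses both. Gene identifiers come without names or functions in the files, so marker genes of the parts could not be looked up and genes are given by identifier, with 2 named in each direction.

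Libraries fell together by part, with cotyledon the more variable one. Total counts ranged from 9882334 to 22827875 in cotyledon and from 16334199 to 32758764 in axis. Spearman's correlation of log CPM across the genes tested ran from 0.918 to 0.981 between cotyledon libraries and from 0.963 to 0.990 between axis libraries, against 0.857 to 0.926 between a cotyledon and an axis library. The lowest value within cotyledon, between libraries 4 and 5, was thus below the highest value between the parts. Of the 18499 genes tested, 14686 had a larger standard deviation over the cotyledon libraries than over the axis libraries, on the log2(CPM + 0.5) scale. CPM, counts scaled to a common library total after TMM scaling, is the unit of all levels given unless stated. The median standard deviation was 0.35 in cotyledon and 0.20 in axis.

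Genes far higher in seed coat than in the other embryo part took a low share of counts in both parts. Among cotyledon libraries the share was highest in 1 and 5. These genes are called seed coat transcripts here. Whether their counts came from the seed coat or from the embryo part itself was not tested. The 271 genes at least 16-fold higher in seed coat than in axis came from a contrast without cotyledon. The fit behind it held all 20 dissection libraries, cotyledon among them. These 271 genes took 1.47% and 1.94% of the counts in cotyledon libraries 1 and 5. In cotyledon libraries 2, 3 and 4 they took 0.731%, 0.527% and 0.311%. The same genes took 18.0% to 19.4% of the counts in seed coat. The 158 genes at least 16-fold higher in seed coat than in cotyledon took 0.118%, 0.303%, 0.596%, 0.221% and 0.262% of the counts in axis libraries 1 to 5, and 14.5% to 15.97% in seed coat. Every cotyledon library held a count for most of its list, with 20 to 47 of the 271 genes at 0, and 12 to 34 of 158 were at 0 in axis. The counts of called genes, the named genes and several of the lists below are also given without libraries 1 and 5.

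**Figure D1:**
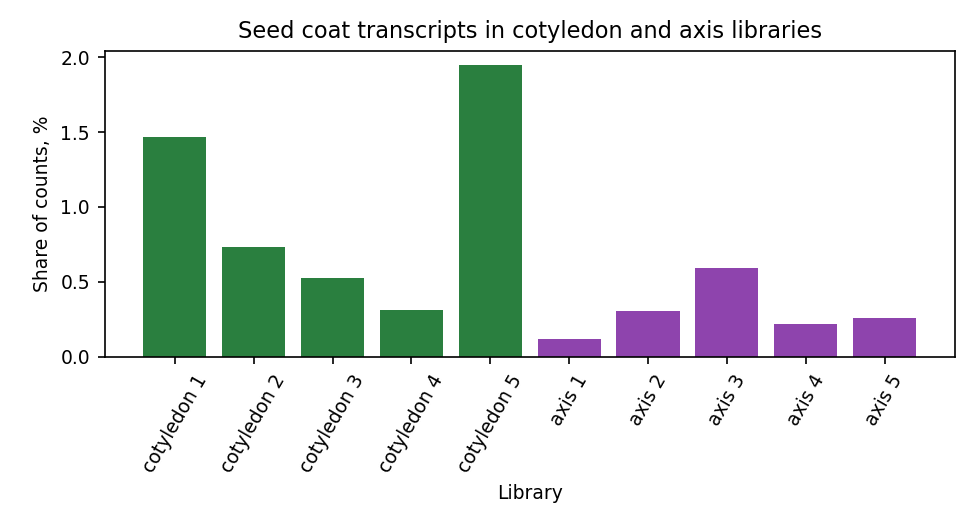
Share of counts, in percent, on seed coat transcripts in each cotyledon library (green) and each axis library (purple), with 1 bar per library. The cotyledon list has 271 genes and the axis list 158, so green and purple bars are not compared. Among the green bars, cotyledon libraries 1 and 5 stand highest at 1.47% and 1.94%.

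Many genes differed between the parts, in similar numbers each way, but the steepest differences were mostly in favour of the axis. A gene was called at an adjusted p under 0.05 in edgeR's quasi-likelihood test, and 8033 of 18499 genes (43.4%) were, 4241 higher in cotyledon (22.9%) and 3792 higher in axis (20.5%). At least 2-fold, 1793 genes were higher in cotyledon (9.69%) and 1720 in axis (9.3%). At least 4-fold, 552 were higher in cotyledon (2.98%) and 732 in axis (3.96%). At least 16-fold, 53 were higher in cotyledon (0.287%) and 250 in axis (1.35%). The last count for cotyledon was 80 without axis library 3. Without cotyledon libraries 1 and 5, 4107 genes were called higher in cotyledon and 3894 in axis, and 74 and 313 at 16-fold. In these bulk samples, fewer cells of a type and less RNA per cell cannot be told apart.

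**Figure D2:**
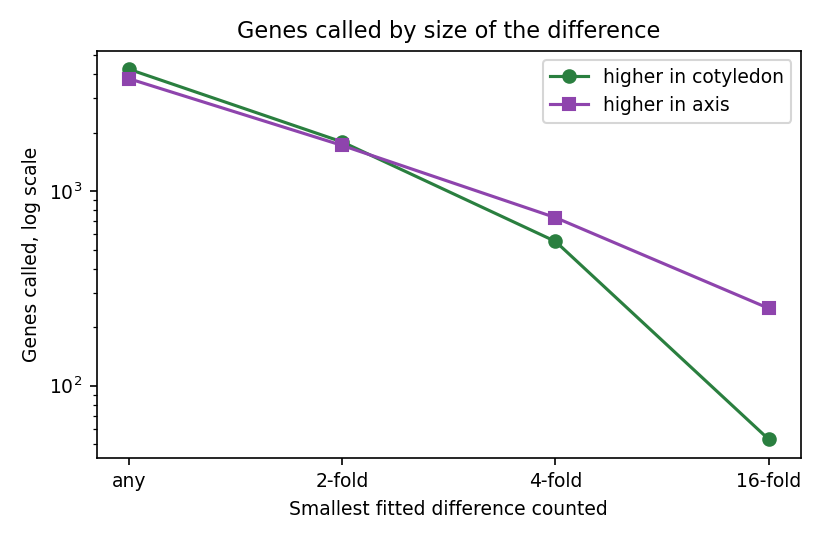
Number of genes called higher in cotyledon (green) and in axis (purple) at an adjusted p under 0.05, on a log scale, by the smallest fitted difference counted. The lines cross between 2-fold and 4-fold, and at 16-fold 250 genes were higher in axis and 53 in cotyledon.

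At the median, the genes with 16-fold differences were weakly expressed in both directions, but some were not. Their median level in the part where they were higher was 7.01 CPM for the 53 cotyledon genes and 6.43 CPM for the 250 axis genes. Of the cotyledon genes 21 reached 10 CPM and 7 reached 100 CPM, and the highest stood at 5135 CPM. Of the axis genes 106 reached 10 CPM and 14 reached 100 CPM, and the highest stood at 733 CPM. In the part where they were lower, the median was 0.173 CPM for the 53 genes and 0.164 CPM for the 250. By the limit explained below, a count of 0 allows 0.169 to 0.381 CPM in cotyledon libraries. In axis libraries it allows 0.0905 to 0.176 CPM. In cotyledon 24 of the 250 had no count, and in axis 0 of the 53. Those limits are for single libraries, and over the 5 libraries of a part together the limit is lower. The lower part was thus low at the median, but most of these genes had counts there. How far the lower median depth of cotyledon shaped the numbers at 16-fold was not tested. Seed coat stood above the higher part in 4 of the 53 and in 7 of the 250, and below it in the others.

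Genes without a single count in one part were found in cotyledon and not in axis. With a mean of at least 1 CPM in axis, 19 genes (0.103%) had no count in any of the 5 cotyledon libraries, and no gene (0%) had the reverse pattern. All 19 had counts in every axis library, at means of 1.08 to 5.53 CPM, and all 19 had a count in whole seed. Seed coat was under 0.1 CPM for 15 of them. To be among the genes tested, such genes needed reads in several axis or whole seed libraries. Their counts there are thus partly set by that filter. The limit that a count of 0 allows was taken as 3 counts in a library, which is 0.169 to 0.381 CPM in the cotyledon libraries and covers counting error only. That limit is for a single library. These genes had no count in any of the 5 cotyledon libraries, so the limit on their mean is lower and was not calculated. Below that lower limit some cotyledon expression of these genes would not have been detectable. Over cotyledon libraries 2, 3 and 4 alone, 30 genes had no count by the same rule.

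Among the most expressed genes more were higher in cotyledon than in axis, and among weakly expressed genes somewhat more were higher in axis. The 18499 genes were divided into 5 equal bins by their mean log2(CPM + 0.5) over the 10 cotyledon and axis libraries, a description that was not tested. In the lowest bin, 532 genes were at least 2-fold higher in cotyledon and 629 in axis. In the middle bin the numbers were 219 and 255. In the highest bin, 419 were higher in cotyledon and 155 in axis. The level used for the bins moved the numbers. By the higher of both part means, the lowest bin held 432 and 477 genes and the highest 508 and 243. By the mean over all 20 dissection libraries, in which seed coat and whole seed also count, they held 432 and 764, and 443 and 91. These choices of level were made after the data were seen.

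**Figure D3:**
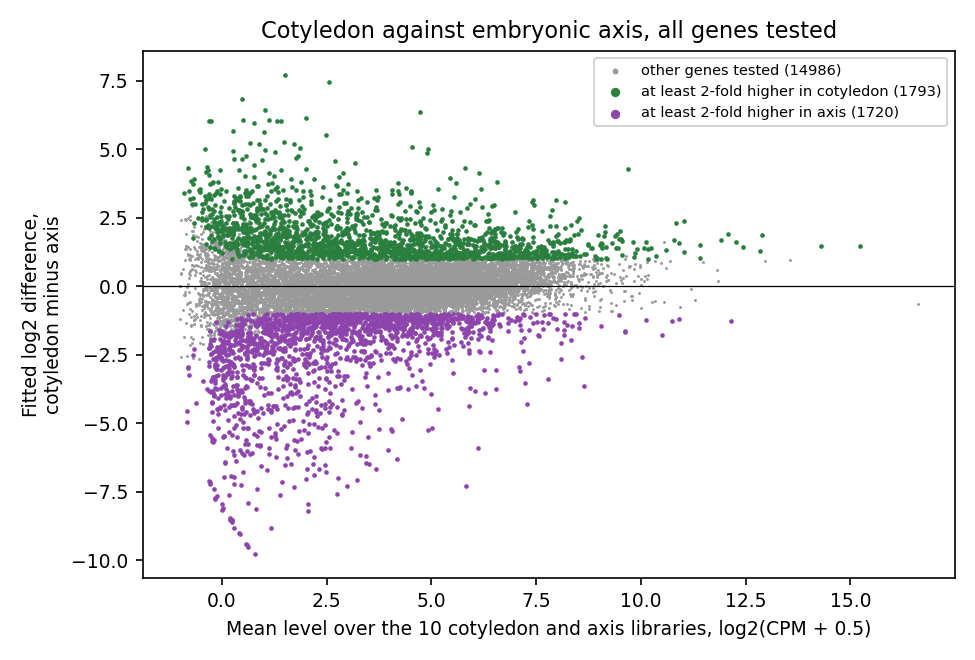
Each point is 1 of the 18499 genes tested, placed by its mean level over the 10 cotyledon and axis libraries, log2(CPM + 0.5), and its fitted log2 difference, cotyledon minus axis. The 1793 genes at least 2-fold higher in cotyledon (green) and the 1720 higher in axis (purple) lie on either side of the line at 0, and in the highest of 5 equal bins 419 were higher in cotyledon and 155 in axis.

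The share of transcripts on these genes was correspondingly unequal. As a description of the lists, the 1793 cotyledon genes took 28.0% to 34.0% of the counts in cotyledon libraries and 11.8% to 14.2% in axis libraries. In cotyledon libraries 2, 3 and 4 alone the range was 33.0% to 34.0%. The 1720 axis genes took 8.15% to 9.38% of the counts in axis libraries and 2.07% to 2.52% in cotyledon libraries. The 10 most counted cotyledon genes held 47.2% of the list's share in cotyledon, and the 10 most counted axis genes 27.7% of theirs in axis.

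The parts overlapped less frequently for genes higher in axis. All 5 libraries of one part lay above all 5 of the other for 2568 genes higher in cotyledon (13.9%) and 3030 higher in axis (16.4%). Among genes at least 2-fold different, the parts did not overlap for 1139 of 1793 cotyledon genes and for 1517 of 1720 axis genes, or 63.5% and 88.2%. The share for cotyledon genes depended on their seed coat level. It was 78.8% (823 of 1044) where the mean in seed coat was below that in cotyledon and 42.2% (316 of 749) where it was above. Without cotyledon libraries 1 and 5, the parts did not overlap for 1319 of the 1793 (73.6%) and 1582 of the 1720 (92.0%), and for 981 of the 1044 (94.0%) and 338 of the 749 (45.1%). Over all genes tested these fewer libraries did not overlap for 22.7% higher in cotyledon and 23.4% higher in axis.

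Sc16g0007280 had the largest difference of mean CPM in favour of cotyledon, at 41678 CPM, among genes called with at least a 2-fold difference and no overlap between the parts. It stood at 45271, 71048, 77526, 76928 and 55577 CPM in cotyledon libraries 1 to 5. In axis libraries 1 to 5 it stood at 16974, 29702, 18475, 23515 and 29293 CPM. All cotyledon libraries were above all axis libraries, and cotyledon libraries 1 and 5 were the lowest of their group. The log2 difference was 1.47 ± 0.40 (SE, n = 5 per part; edgeR adjusted p = 0.00524), and 1.67 without cotyledon libraries 1 and 5 (edgeR adjusted p = 0.00432). It was the second most counted gene in each part, yet seed coat held only 12.7 to 58.9 CPM.

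Sc20g0000730 had lower levels and a log2 difference not tested against that of Sc16g0007280. Its cotyledon values were 12113, 17445, 16089, 20156 and 8607 CPM, against 3734, 3557, 3144, 5266 and 4886 CPM in axis. The groups did not overlap, which the rule for naming required, and cotyledon library 5 was the nearest to axis. The log2 difference was 1.85 ± 0.34 (SE, n = 5 per part; edgeR adjusted p = 0.000148), and 2.12 without cotyledon libraries 1 and 5 (edgeR adjusted p = 7.11e-05). Seed coat held 113.8 to 236.0 CPM.

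In the other direction, Sc24g0003280 stood at 3087, 2734, 3118, 2097 and 3903 CPM in cotyledon libraries 1 to 5. Axis libraries 1 to 5 held 5693, 6672, 5826, 9382 and 8140 CPM, all above cotyledon, which the same rule required. The log2 difference was -1.26 ± 0.36 (SE, n = 5 per part; edgeR adjusted p = 0.00785), and -1.43 without cotyledon libraries 1 and 5 (edgeR adjusted p = 0.0136). Sc06g0003330 stood at 654.5 to 897.5 CPM in cotyledon, median 838, and at 2132 to 3690 CPM in axis, median 2631. Its log2 difference was -1.77 ± 0.37 (SE, n = 5 per part; edgeR adjusted p = 0.000539), and -1.77 without cotyledon libraries 1 and 5 (edgeR adjusted p = 0.00371). Both genes were far lower in seed coat than in either embryo part, at means of 10.4 ± 6.4 and 3.71 ± 2.60 CPM (SD, n = 5).

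**Figure D4:**
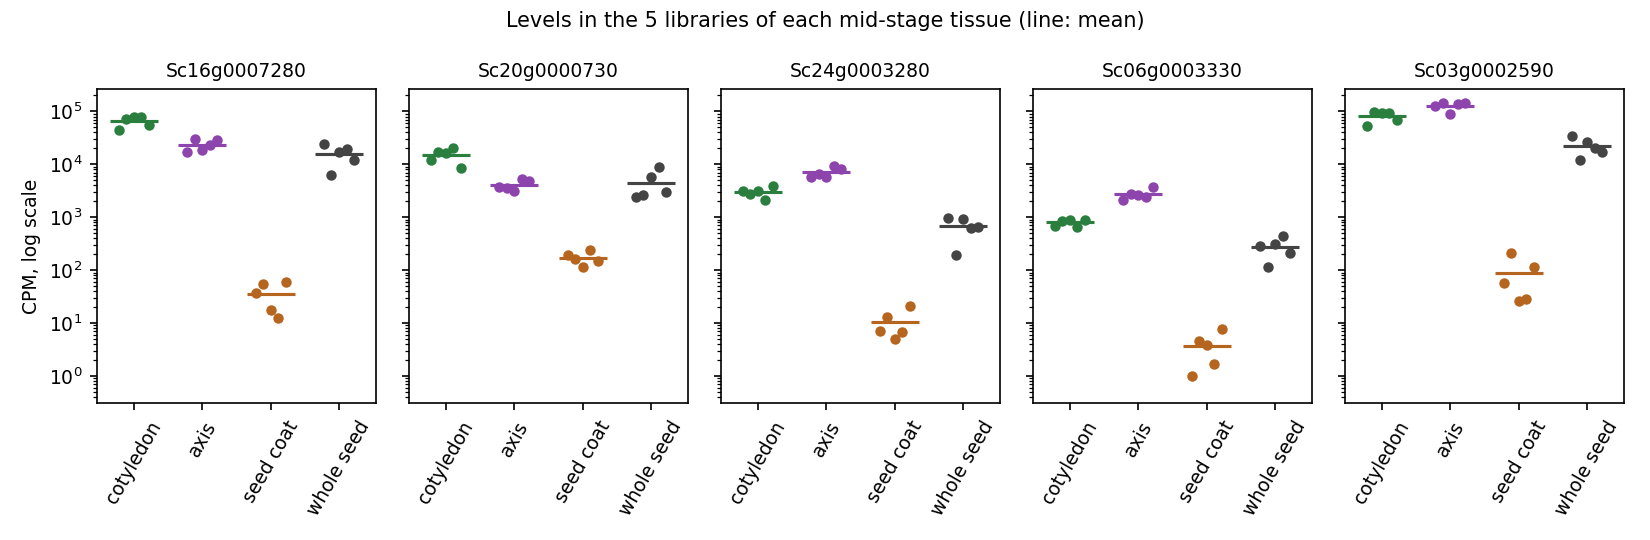
CPM on a log scale in each of the 5 libraries of cotyledon, axis, seed coat and whole seed for the 4 named genes and for Sc03g0002590, with lines at the means. Seed coat lies far below the embryo parts in all 5 panels. Cotyledon and axis overlap for Sc03g0002590, and the 4 named genes were chosen for having no overlap.

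The named genes also had different courses over seed development, in time-course libraries that did not choose them. The time course was normalized separately, so its levels are not compared with those of the dissected parts. Sc16g0007280 stood at 12.8 ± 8.4 CPM in early, 7081 ± 1172 in mid, 40312 ± 7142 in late and 2088 ± 1026 in dry seed (SD, n = 6). It fell from late to dry seed by 4.27 ± 0.48 on the log2 scale (SE, edgeR adjusted p = 1.42e-08). Sc20g0000730 stood at 157 ± 52, 3190.5 ± 844.0, 5494 ± 1374 and 3764 ± 899 CPM over the same stages.

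The named axis genes had their highest means in dry seed. Sc24g0003280 stood at 10.9 ± 2.9 CPM in early, 332 ± 175 in mid, 11757 ± 5062 in late and 18117 ± 7466 in dry seed (SD, n = 6), and its last step did not pass (log2 change 0.62 ± 0.35, SE, edgeR adjusted p = 0.107). Sc06g0003330 stood at 0.774 ± 0.666, 84.5 ± 24.1, 2582 ± 1244 and 8853 ± 3217 CPM. It rose from late to dry seed by 1.78 ± 0.37 on the log2 scale (SE, edgeR adjusted p = 0.000113).

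Sc03g0002590, chosen after its values were seen, was the most counted gene in all 10 libraries and did not pass the test. Its share of counts was 5.40%, 8.09%, 7.51%, 7.003% and 6.94% in cotyledon libraries 1 to 5 and 13.9%, 14.6%, 10.2%, 14.3% and 14.4% in axis libraries 1 to 5. These raw shares did not overlap. In TMM-scaled CPM the parts did overlap, at 54117 to 96872 in cotyledon and 90940 to 142347 in axis, with a log2 difference of -0.65 ± 0.46 (SE, n = 5 per part; edgeR adjusted p = 0.265). The scaling factors were 0.767 to 1.006 in cotyledon and 1.01 to 1.12 in axis.

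More genes were detected in axis than in cotyledon, counted at 1 CPM of the library total. The part of the counts held by a few genes did not pass the test. In each library the 10 most counted genes together held 23.0% ± 3.5 of the counts in cotyledon and 21.5% ± 2.6 in axis (SD, n = 5; two-sided exact permutation test, p = 0.429, adjusted p = 0.429 over 3 tests). The 100 most counted took 36.8% ± 3.9 and 32.7% ± 2.5 (exact permutation test, p = 0.0952, adjusted p = 0.143). Without cotyledon libraries 1 and 5, this second difference passed (adjusted p = 0.0268). Genes detected at 1 CPM, here of the library total without TMM scaling, numbered 16086 to 16601 in cotyledon and 16661 to 17102 in axis. All axis libraries were above all cotyledon libraries (exact permutation test, p = 0.00794, the smallest that 5 against 5 can give, adjusted p = 0.0238). Without cotyledon libraries 1 and 5 the mean difference was -712 genes, cotyledon minus axis (exact permutation test, adjusted p = 0.0268). Scaling factors were lower in cotyledon, so a gene of the same TMM-scaled level fell below 1 CPM of the total more easily there. Detection on the TMM scale is not given.

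These shares depended on Sc03g0002590. Leaving it out, a choice made after the values were seen and given with no test, the 10 most counted genes took 13.1% to 19.1% of all counts in cotyledon libraries and 7.08% to 9.81% in axis libraries. The most counted genes were largely common to both parts. Of the 10 most counted by mean share, 8 were in both lists, and of the 100 most counted, 67 were, or 67% of each list. Among the 100 of cotyledon, 53 were at least 2-fold higher in cotyledon and 4 in axis. Among the 100 of axis, 18 were at least 2-fold higher in axis and 23 in cotyledon. Over all genes tested, 9.69% were at least 2-fold higher in cotyledon and 9.3% in axis, and a ranking by the level in one part favours genes higher there.

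Seed coat stood above both embryo parts for few of the axis genes, and for a share of the cotyledon genes near that of all genes. Of the 1793, the mean in seed coat was above both embryo parts for 749 (41.8%), between them for 542 and below both for 502. Of the 1720 axis genes, seed coat was above both for 162 (9.42%), between for 668 and below both for 890 (51.7%). Over all genes tested, seed coat was above both for 38.4% and below both for 40.5%. The median level of the cotyledon genes was 3.76 ± 0.06 in seed coat, 4.08 ± 0.08 in cotyledon and 2.40 ± 0.33 in axis, on the log2(CPM + 0.5) scale (SD over 5 libraries). For the axis genes it was 1.29 ± 0.16, 1.46 ± 0.17 and 3.38 ± 0.11.

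The 749 cotyledon genes with still higher seed coat levels had their highest levels in cotyledon libraries 1 and 5. Both these genes and the 271 seed coat transcripts were chosen for seed coat above axis, and 124 genes were in both, or 16.6% of the 749 and 45.8% of the 271. The median level of the 749 was 3.53, 3.16, 2.85, 2.55 and 3.79 in cotyledon libraries 1 to 5, on the log2(CPM + 0.5) scale, 0.99 to 2.32 in axis and 4.47 to 4.67 in seed coat. Without the 124 shared genes it was 3.83, 3.52, 3.21, 2.91 and 4.09 in cotyledon libraries 1 to 5. Libraries 1 and 5 were highest in both readings, and they also held the most seed coat transcripts. The 749 were chosen on these same cotyledon libraries, with or without the 124, so neither reading is an independent check. Why libraries 1 and 5 were highest was not tested. The other 1044 genes, with seed coat below cotyledon, ran the other way, at 4.71, 4.99, 5.26, 5.32 and 4.51. They stood at 3.01 to 3.30 in axis and 2.76 to 3.01 in seed coat.

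Without cotyledon libraries 1 and 5, 987 of these 1044 genes (94.5%) stayed at least 2-fold higher in cotyledon by edgeR at an adjusted p under 0.05. Of the 749, 353 (47.1%) did. Of the 1720 axis genes, 1397 (81.2%) did in their direction. The totals at 2-fold were then 1759 genes higher in cotyledon, 419 of them not among the 1793, and 1812 higher in axis. The division by seed coat level was made after the data were seen.

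Whole seed held a larger part of the cotyledon level than of the axis level. It was read on genes with at least 5 CPM in the higher part and seed coat under 5% of that level. For 124 such cotyledon genes, the level in whole seed was 38.8% of that in cotyledon at the median (quartiles 30.8% and 47.0%). For 291 such axis genes it was 7.04% of that in axis (quartiles 3.68% and 12.4%). The cotyledon level of those axis genes was 9.19% of the axis level at the median, and whole seed stood above cotyledon for 100 of the 291. The axis level of the cotyledon genes was 20.4% of the cotyledon level at the median, and whole seed stood above axis for 106 of the 124.

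The cotyledon genes were followed through the time course, whose libraries took no part in choosing them. Of the 1793, 1745 were tested there. From early to mid seed 645 rose and 427 fell (37.0% and 24.5%), where 26% of all 18440 genes rose and 23.6% fell. From mid to late seed 446 rose and 679 fell (25.6% and 38.9%), where 27.3% and 29.8% of all genes did. From late to dry seed 313 rose and 1187 fell (17.9% and 68.0%), where 36.8% and 43.3% of all genes did. The median log2 change into dry seed was -2.21, against -0.13 over all genes tested. No test of the list as a whole was made.

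The genes moved differently by their seed coat level. Of the genes with seed coat below cotyledon, 1011 were tested, and 549 rose and 110 fell from early to mid seed (54.3% and 10.9%). Of the genes with seed coat above cotyledon, 734 were tested, and 96 rose and 317 fell (13.1% and 43.2%). From late to dry seed, 242 of the first rose and 597 fell, with a median log2 change of -1.24. Of the second 71 rose and 590 fell, with a median of -4.06. With the list drawn without cotyledon libraries 1 and 5, 813 of 1699 rose and 256 fell into mid seed, and 423 rose and 1006 fell into dry seed. The labels do not state if seeds of the time course were sampled with their coat, so a change in the coat's part and a change in its transcripts cannot be told apart.

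Among the axis genes more fell than rose at each step, as among all genes at the last 2 steps. Of the 1720, 1496 were tested in the time course and 224 had too few reads. From early to mid seed 367 rose and 463 fell (24.5% and 30.9%), where 26% and 23.6% of all genes did. From mid to late seed 342 rose and 557 fell (22.9% and 37.2%), where 27.3% and 29.8% of all genes did. From late to dry seed 468 rose and 732 fell (31.3% and 48.9%), where 36.8% and 43.3% of all genes did. Their median log2 change into dry seed was -0.65, against -0.13 over all genes tested. By the stage with the highest mean, 29.7% of the axis genes tested peaked in dry seed, against 15.0% of the cotyledon genes and 37.1% of all genes tested in both tables. Mid seed was the peak of 25.8% of cotyledon genes, 19.9% of axis genes and 15.98% of all.

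**Figure D5:**
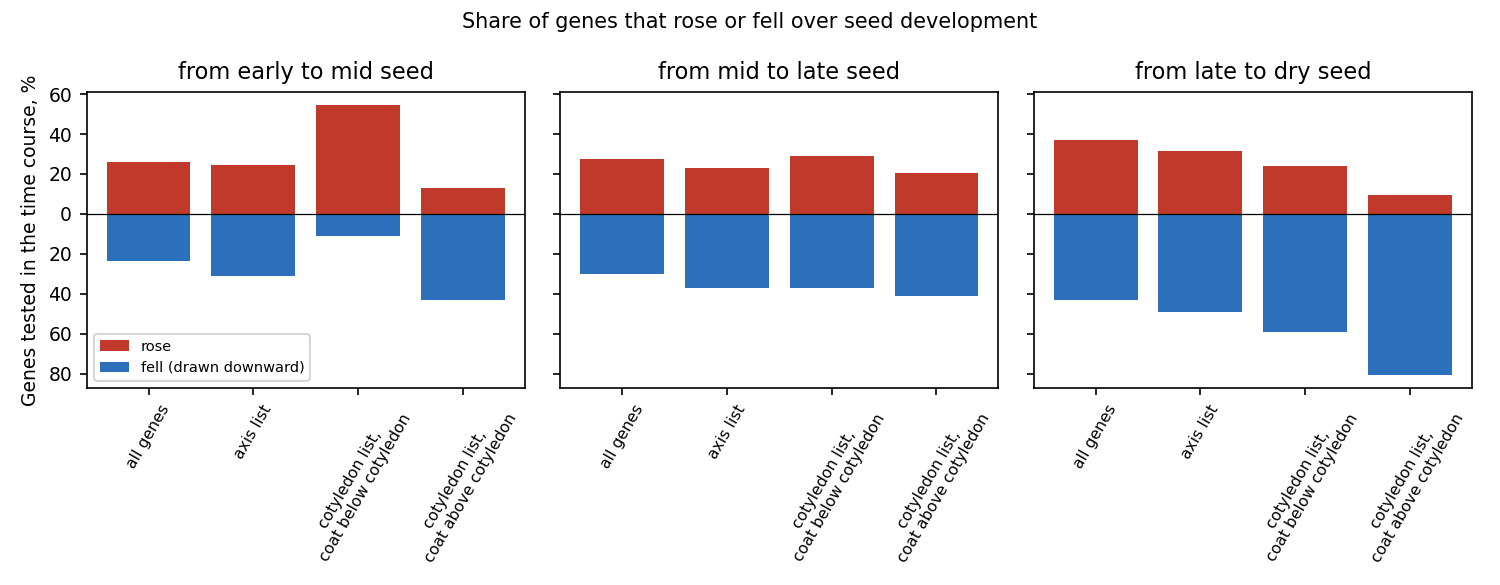
Percent of genes tested in the time course that rose (red, upward) or fell (blue, downward) at an adjusted p under 0.05, for all genes, the axis list and the cotyledon list divided by seed coat level. Into mid seed, 54.3% of the cotyledon genes with seed coat below cotyledon rose and 43.2% of those with seed coat above fell.

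A gene with a large difference was followed by another of the same direction in the order of identifiers more frequently than such genes occurred among all tested genes, as a description. The files do not say what the identifier prefix or order stands for, and near-identical copies may share reads. Among 15391 pairs of consecutive identifiers with both genes tested, 40 pairs had both genes at least 4-fold higher in cotyledon and 56 had both at least 4-fold higher in axis. In 33 pairs the genes were 4-fold different in opposite directions. A cotyledon gene at 4-fold was followed by another in 9.64% of pairs, where 2.98% of all genes were such genes. For axis genes this was 9.69%, where 3.96% were. Runs of 3 or more numbered 5 for cotyledon and 8 for axis, the longest with 4 and 3 genes.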

How the data were processed

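Per the labels, hot-borate extraction and a stranded mRNA kit were used. Raw read counts were deposited for 23491 genes, in separate tables for the dissected parts and the time course. Per the submitters' processing notes, Trimmomatic, STAR and DESeq2 were used. The genome build, annotation, strand setting and counting step were not given in the sources used here, so genes with near-identical or antisense partners are uncertain. The authors' normalized tables were not used.

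Counts were tested with edgeR 4.0.16 in R 4.3.3 (TMM, filterByExpr, glmQLFit, glmQLFTest). The 4 groups of each table shared a fit, with Benjamini-Hochberg adjustment over all genes tested and a threshold of 0.05. Each SE of a log2 difference was its size divided by the square root of the test's F statistic. It thus rests on the spread over all 4 groups, not on the compared groups alone. The script was tested on simulated data. The filter left 18499 of the genes. Library measures were compared by exact permutation tests. Libraries of a part always differed beyond sampling noise (chi-square per degree of freedom at least 16.1). Alternatives included DESeq2 1.42.0. Tables and plots were made with pandas 2.3.3, numpy 2.4.6 and matplotlib 3.10.9 in Python 3.11.15.

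Named genes had an adjusted p under 0.05, at least a 2-fold difference and parts that do not overlap, and were the 2 in each direction with the largest difference of mean CPM. Members, lists and rules were chosen with earlier results of these data known.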

Additional observations from a re-analysis of the deposited data

Results flagged for a closer look

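Of 24 sets of 5 library values that were looked at, 1 held a library far from the others. The share of counts on the 1720 genes higher in axis was 8.15% in axis library 2 and 9.10% to 9.38% in the other axis libraries. Chance flags about 1 in 20 such sets.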

How the results depend on the processing

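Over 472 alternative values, 459 kept their direction and side of the threshold or stayed within 1.5 times, and 0 reversed. Most of these values are counts or percents, which cannot change sign, and each was judged by itself. The counts of genes higher and lower in cotyledon were 3916 and 4150 under upper-quartile scaling, and 3674 and 3914 where the fit held cotyledon and axis alone, so which side is larger is not firm. With each library left out they ran from 3669 to 4244 and from 3414 to 3982. At 16-fold the counts for cotyledon and axis were 53 and 250, 93 and 365 with DESeq2's Wald test, and 100 and 437 with no filter. The difference in the share of the most counted genes, 4.07 percentage points for 100 genes, was 5.93 for 1000 genes (exact permutation test, adjusted p = 0.0357) and 6.87 without cotyledon libraries 1 and 5 (exact permutation test, adjusted p = 0.0268). The cause was not tested. Of the cotyledon genes, 37.0% rose and 24.5% fell into mid seed. For genes with seed coat above cotyledon this was 13.1% and 43.2%, for genes with seed coat below cotyledon 10.9% fell, and with the list drawn without cotyledon libraries 1 and 5 15.1% fell. Into dry seed 17.9% rose, and 9.67% of those with seed coat above cotyledon did. The share of consecutive identifiers called alike was 15.0% for cotyledon and 15.8% for axis at 2-fold, where 9.69% and 9.3% of all genes were called.

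With the replicate number as a block the counts were 3991 higher and 3768 lower in cotyledon. Same-numbered cotyledon and axis libraries deviated from their groups with correlations of -0.26 to 0.11. Of the 5 cotyledon libraries, 0 correlated best with their own number. Pairing by number was thus not seen, but weak correlations over so few libraries cannot exclude it. The alternatives without libraries 1 and 5 and by seed coat level were chosen after seeing the data. Depth limits weakly expressed genes, where a count of 0 allows up to 0.381 CPM in the shallowest cotyledon library.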
